A study of Saccharomyces cerevisiae with 4 samples.

Results

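Genes for the proteins of the small cytosolic ribosomal subunit of budding yeast were followed through treatment with celastrol and through heat shock. Members were the genes whose symbol in the array's probe annotation begins with RPS and a digit, which gave 54 of the 5477 genes on the array, each with 1 probe. RPS3 was left out because its probe also names a second entry. The members comprise 24 couples of duplicated genes, named A and B, and 6 genes without a partner among them. RPS30A had an exact 0 on heat shock replicate 2, taken as not measured, which left 53 members among the 5403 genes tested.

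RNA of Saccharomyces cerevisiae was compared on 4 arrays with 2 colours each. On 2 arrays, cells given 10 µM celastrol for 1 h were set against cells given the solvent DMSO, in the same volume and for the same time. On the other 2 arrays, cells held at 39 °C for 30 min were set against cells held at 30 °C for 30 min. Each value is a log2 ratio of treated over its own control, so −1 stands for a level at 50% of the control. Celastrol is a triterpenoid from a medicinal plant that activates stress responses. The labels name neither the strain nor the medium, and do not say whether replicate arrays came from separate cultures, so the p-values measure a spread between arrays that may be technical. Base 2 could be checked on heat shock replicate 1 alone. Fold values after celastrol assume it, and so do those after heat shock, which include replicate 2.

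The small subunit of the ribosome binds messenger RNA, reads its codons and pairs them with transfer RNAs, and consists of ribosomal RNA with a set of ribosomal proteins in a head and in a body with a platform. Yeast inherited a second copy of most ribosomal protein genes from an ancient genome duplication, and many A and B copies encode the same or nearly the same protein. Ribosomal protein genes are among the most strongly transcribed genes of growing yeast, under the activators Rap1, Fhl1, Ifh1 and Sfp1. Their transcription is known to fall under many stresses, when signalling through TORC1 and protein kinase A drops.

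The treatments could be told apart on the arrays by known responders. SSA4, for an Hsp70 chaperone, was high after both, with 3.69 and 4.59 on the celastrol arrays, against 3.73 and 4.77 on the heat shock arrays. The oxidoreductase gene GRE2 had log2 ratios of 5.68 and 4.34 on the celastrol arrays, against 1.14 and 0.996 on the heat shock arrays, and the NADPH dehydrogenase gene OYE3 had 3.54 and 4.58 on the celastrol arrays, against −0.47 and 0.17 on the heat shock arrays. HSP26, for a small heat shock protein, had 2.47 and 2.95 on the celastrol arrays, against 4.58 and 5.32 on the heat shock arrays. The median over all genes tested was −0.097 and −0.14 on the celastrol arrays, against 0.037 and −0.048 on the heat shock arrays, so the celastrol values are centred a little below 0. Treated RNA was in Cy5 on every array, and a dye effect of a probe cannot be told apart from the treatment. A probe for an A or B copy may also bind RNA of its near-identical partner, which makes the values of single copies uncertain. In bulk RNA, fewer cells with a transcript and less of it per cell cannot be told apart.

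As a group, the members were low on every array. Their median log2 ratio was −0.60 and −1.53 on the celastrol arrays, against −1.99 and −1.44 on the heat shock arrays. Of 53 members, 46 lay below 0 on all 4 arrays (86.8%), where 27.4% of all genes tested did. Just 1 member, RPS9A, lay above 0 on all 4 arrays, where 17.8% of all genes did. Replicates differed in size within each treatment: 51 of 53 members were lower on celastrol replicate 2 than on replicate 1, and 42 were lower on heat shock replicate 1 than on replicate 2. Of all 5403 genes tested, 3121 and 2501 were, in the same order. The SD over all probes was larger on celastrol replicate 2 and on heat shock replicate 1. It was 0.603 and 0.807 on the celastrol arrays, against 0.934 and 0.579 on the heat shock arrays. The part of this SD in the members' spread was not tested.

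**Figure D1:**
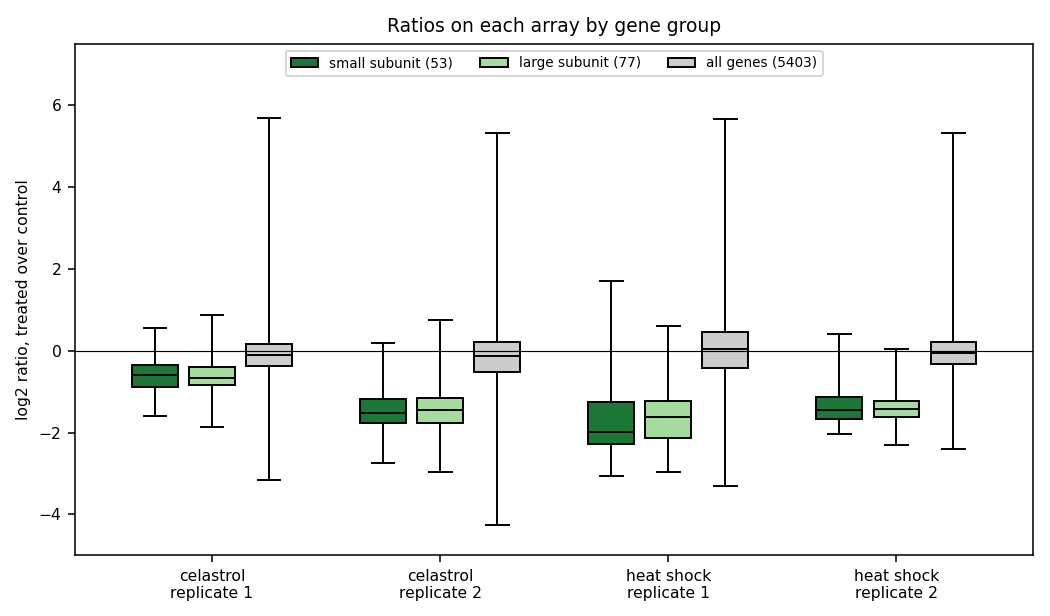
Log2 ratios (treated over control) on each array for the 53 small-subunit members, 77 genes of the large subunit with the acidic stalk proteins, and the 5403 genes tested; boxes span the quartiles with the median as a line, and whiskers reach the lowest and highest gene. The boxes of both ribosomal groups lie below 0 on all 4 arrays, with small-subunit medians from −1.99 on heat shock replicate 1 to −0.60 on celastrol replicate 1.

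Celastrol lowered 7 small-subunit genes and raised none. The median of the 53 members was −1.05, a level 0.483 times that in DMSO, beside −0.11 for all genes tested. By limma, 7 of 53 fell (13.2%), where 2.68% of all genes fell, and 0 rose, where 3.85% of all genes rose. Over all genes this split was 145 lower and 208 higher, against 87 lower and 245 higher with arrays centred on their medians and 667 lower and 468 higher with quantile normalization. Those that fell were RPS9B, RPS11B, RPS12, RPS22A, RPS26B, RPS28B and RPS31, with mean log2 ratios of −1.47 to −1.01 and limma adjusted p-values of 0.037 to 0.0412. An unadjusted p under 0.05 was reached by 37 of the 53 (69.8%), where 30.8% of all genes reached it. The median was −0.60 without celastrol replicate 2. With each array centred on its median, 3 of the 7 calls remained, for RPS12, RPS28B and RPS31, and with quantile normalization 34 members fell, the 7 among them. Without either celastrol array 0 members were called, and without either heat shock array, or with the celastrol arrays fitted alone, 41 were.

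RPS31 makes a ribosomal protein of the head as a fusion to ubiquitin, and so supplies both. It had log2 ratios of −1.05 and −1.72 on the celastrol arrays and fell by 1.39 on the log2 scale (SD 0.48, n = 2; limma adjusted p = 0.0395). RPS12, for a protein of the beak of the head, had −1.02 and −1.50 and a mean of −1.26 ± 0.34 (SD, n = 2; limma adjusted p = 0.037). Both genes were clearly below 0 on both arrays, and lower on replicate 2. RPS28B, whose protein is known in yeast to bind its own messenger RNA and promote its decay, had −1.05 and −1.63 and a mean of −1.34 ± 0.42 (SD, n = 2; limma adjusted p = 0.0371). Its duplicate RPS28A had −0.19 and −1.66 and was not called (limma adjusted p = 0.167), with a ratio like that of RPS28B on replicate 2 and one nearer 0 on replicate 1.

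The called body and platform genes were RPS22A, RPS26B, RPS9B and RPS11B. RPS22A, for a protein of the body, had −1.12 and −1.82 on the celastrol arrays, a mean of −1.47 ± 0.50 (SD, n = 2; limma adjusted p = 0.0412). RPS26B, for a protein at the exit of the messenger RNA channel, had −1.08 and −1.63 and a mean of −1.36 ± 0.39 (SD, n = 2; limma adjusted p = 0.0407). RPS9B, for a protein near the entry of that channel, had −1.06 and −1.62, and RPS11B, also of the body, had −0.80 and −1.21. In each of these 4 genes both arrays were below 0, and celastrol replicate 2 was the lower.

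The lowest means after celastrol were mostly not called. RPS18B, for a protein of the head that lies beside the transfer RNAs, had the lowest mean, with −1.60 and −2.74 on the celastrol arrays (−2.17 ± 0.80, SD, n = 2; limma adjusted p = 0.089). RPS21A had −1.18 and −1.87, RPS25B −0.86 and −2.13 and RPS22B −0.34 and −2.52, and none of these passed the test. RPS22B differed most between the celastrol arrays of all members, with an SD of 1.54.

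At the other end stood RPS9A, at 0.54 and 0.19 on the celastrol arrays, which lay above 0 on both. RPS19A, whose human counterpart is mutated in Diamond-Blackfan anaemia, had 0.17 and −0.37, RPS15, needed for export of the small subunit from the nucleus, 0.030 and −0.65, and RPS25A −0.58 and −0.40. RPS23A, for a protein of the decoding centre, had −0.12 and −0.72. These 5 were the highest members after celastrol and none was called, with limma adjusted p-values of 0.222 for RPS9A and 0.772 for RPS19A. RPS24B (0.031 and −1.37) and RPS29A (0.10 and −1.76), like RPS15 and RPS19A, had a ratio above 0 on replicate 1 and below 0 on replicate 2.

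**Figure D2:**
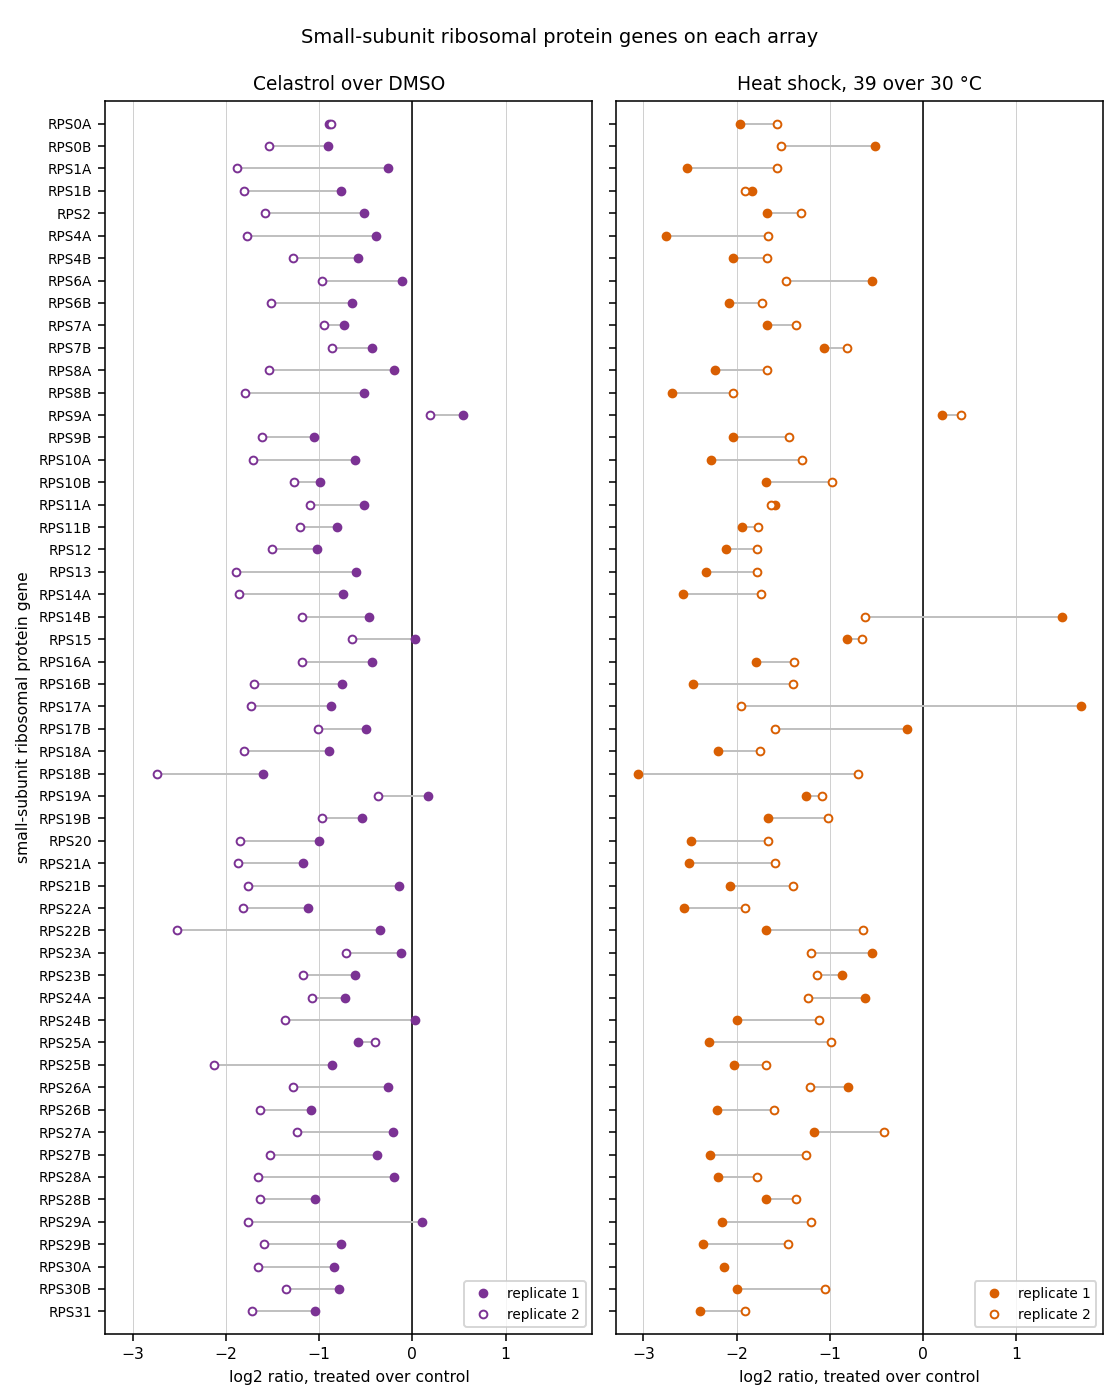
Log2 ratios (treated over control) of all 54 members on each array, with celastrol on the left and heat shock on the right; filled points are replicate 1, open points replicate 2, and a grey line joins them. RPS9A alone lies right of 0 on all 4 arrays, and RPS14B and RPS17A lie right of 0 on heat shock replicate 1 only; RPS30A has no value on heat shock replicate 2.

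Heat shock lowered 35 small-subunit genes and raised none. The median of the 53 members was −1.74, a level 0.300 times that at 30 °C, beside 0.0048 for all genes tested. By limma, 35 of 53 fell (66.0%), where 4.79% of all genes fell, and 0 rose, where 4.28% of all genes rose. Over all genes 259 fell and 231 rose, and 629 fell and 360 rose with quantile normalization. All 35 were below 0 on both heat shock arrays, with means of −2.36 for RPS8B to −0.94 for RPS7B and limma adjusted p-values of 0.0133 to 0.0469. Among the 100 lowest of the 5403 genes by mean heat shock ratio, 26 were small-subunit genes, of which 53 were tested. By mean celastrol ratio, 1 of the 100 lowest was a small-subunit gene. All 7 genes that fell after celastrol were among the 35. Over all genes, 59 of the 145 that fell after celastrol also fell after heat shock. Both calls of a gene use the same spread, so they are not independent. The calls rest on the spread that both treatments share: without either celastrol array, or with the heat shock arrays fitted alone, limma called 0 members after heat shock, while the means stayed as they were, and it called 31 without heat shock replicate 1, with 25 of the 35 among them, and 44 without replicate 2.

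RPS8B, for a protein of the body, was the lowest member after heat shock and ranked 2 from the bottom of all genes tested. Its log2 ratios were −2.69 and −2.04 on the heat shock arrays, a mean of −2.36 ± 0.46 (SD, n = 2; limma adjusted p = 0.0242). RPS22A had −2.57 and −1.92 and a mean of −2.24 ± 0.46 (SD, n = 2; limma adjusted p = 0.0177). In both genes heat shock replicate 1 was the lower array and both ratios lay far below 0. RPS4A, also of the body, had −2.76 and −1.67 (−2.21 ± 0.78, SD, n = 2; limma adjusted p = 0.0415). RPS14A, for a protein of the platform, had −2.57 and −1.74, and RPS31 had −2.39 and −1.91. These 5 lowest members ranked 2, 5, 8, 11 and 13 from the bottom among all genes.

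Among the 6 genes without a partner, 5 fell after heat shock (83.3%), beside 66.0% of the 53 members and 4.79% of all genes. RPS15 did not pass the test. RPS12 had −2.11 and −1.78 on the heat shock arrays, RPS13, for a protein of the body, −2.33 and −1.78, and RPS20, for a protein of the head, −2.49 and −1.66. RPS2, for a protein at the entry of the messenger RNA channel, had −1.67 and −1.31 (limma adjusted p = 0.0432). In each of them replicate 1 was lower, and the ratio nearest to 0 was −1.31, of RPS2. RPS15, at −0.81 and −0.66, had a smaller ratio that was alike on both arrays (−0.74 ± 0.11, SD, n = 2; limma adjusted p = 0.0976). The other celastrol ratios of this group were −0.52 and −1.58 for RPS2, −0.60 and −1.89 for RPS13 and −0.997 and −1.85 for RPS20. RPS15 was also the highest of the 6 after celastrol.

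Of the 18 members that did not pass after heat shock, all but RPS9A, RPS14B and RPS17A were below 0 on both arrays. RPS27A, for a zinc-binding protein of the body, had −1.17 and −0.42 (limma adjusted p = 0.169), and RPS1A had −2.53 and −1.57 (limma adjusted p = 0.0541). RPS9A was above 0 on both, at 0.20 and 0.40 (0.30 ± 0.14, SD, n = 2; limma adjusted p = 0.289). RPS14B had 1.49 and −0.62 and RPS17A 1.69 and −1.95, so that replicate 1 pointed up and replicate 2 down. RPS17A had the largest SD between heat shock arrays of all members, 2.58, and its celastrol ratios were −0.88 and −1.73.

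Such a reversal between the heat shock arrays was uncommon. A ratio over 1 on replicate 1 together with 1 below −0.5 on replicate 2, limits chosen after the values were seen, was found in 14 of the 5403 genes, RPS14B and RPS17A among them. RPS18B had the opposite gap, with −3.06 and −0.70 on the heat shock arrays (limma adjusted p = 0.114). From lowest to highest its arrays ran heat shock replicate 1, celastrol replicate 2, celastrol replicate 1, heat shock replicate 2. Probes without an annotated gene had their medians in that order too, with −0.26 and −0.44 on the celastrol arrays, against −0.62 and −0.10 on the heat shock arrays. Whether this bears on RPS18B was not tested; 344 of 5403 genes and 2 members, RPS10B and RPS18B, had that order.

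Described next are couples in which both copies fell after heat shock. They were picked by those calls, so their likeness does not show how far duplicates moved together. RPS4B had −2.04 and −1.67 on the heat shock arrays, above RPS4A on replicate 1 and level with it on replicate 2. RPS7A, for a protein of the body, had −1.68 and −1.36, and RPS7B −1.07 and −0.81, with the mean nearest 0 among the 35. In the head, RPS16A, for a protein whose tail reaches the transfer RNA, had −1.79 and −1.38 and RPS16B −2.46 and −1.39. RPS10A, near the entry of the messenger RNA channel, had −2.28 and −1.30 and RPS10B −1.68 and −0.97. RPS28A had −2.20 and −1.79 and RPS28B −1.69 and −1.36, so that RPS28A, the copy with the mean nearer 0 after celastrol, had the mean farther from 0 after heat shock. RPS19B had −1.66 and −1.02 and RPS25B −2.03 and −1.68, and in all of these genes both heat shock arrays were well below 0.

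Several couples had only 1 copy past the threshold. RPS1B, for a protein of the platform, had −1.84 and −1.91 on the heat shock arrays and fell, while RPS1A had the larger gap between arrays given above. RPS21A had −2.51 and −1.59 and fell, and RPS21B had −2.07 and −1.40 (limma adjusted p = 0.067). RPS29B, for a zinc-binding protein of the head, had −2.36 and −1.45 and fell, and RPS29A had −2.16 and −1.20 (limma adjusted p = 0.0976). In these couples the copies had overlapping ratios. RPS23B had −0.87 and −1.13 and fell, and RPS23A had −0.55 and −1.20 (limma adjusted p = 0.0908). RPS18A had −2.20 and −1.75, between the arrays of RPS18B, and fell. Of the couples with no call, RPS24A had −0.62 and −1.24 and RPS24B −1.99 and −1.12, both below 0, and RPS27B had −2.28 and −1.25 (limma adjusted p = 0.0516).

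Genes that fell were found for both regions of the subunit. Of 20 genes for head proteins 3 fell after celastrol (15%) and 15 after heat shock (75%). Their medians were −1.17 after celastrol and −1.73 after heat shock. Of 33 genes for proteins of the body and platform 4 fell after celastrol (12.1%) and 20 after heat shock (60.6%). Medians of these 33 were −0.96 after celastrol and −1.74 after heat shock. Among all genes tested, 2.68% fell after celastrol and 4.79% after heat shock. The head genes that did not pass after heat shock were RPS15, RPS17A, RPS17B, RPS18B and RPS29A. Genes without a partner had medians of −1.25 after celastrol and −2.002 after heat shock. The difference between these groups was not tested.

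No member passed the test of celastrol minus heat shock, although the mean after heat shock was the lower in 48 of 53. Of all 5403 genes tested, it was the lower in 2269. The median difference was 0.62 log2 units, beside −0.086 for all genes tested, and 0.73 with each array centred on its median. It was 0.17 without celastrol replicate 1 and 0.998 without celastrol replicate 2. Limma called 0 members, where 0.537% of all genes were called higher and 0.574% lower, and 6 members (11.3%) reached an unadjusted p under 0.05, where 13.7% of all genes did, so that this count does not stand above the background. In 18 members (34.0%) both celastrol arrays lay above both heat shock arrays, where 18.1% of all genes did, and in 0 members both lay below, where 28.9% of all genes did. Without heat shock replicate 2, limma called 4 members, RPS0A and RPS25A higher and RPS14B and RPS17A lower. A difference that misses the threshold with 2 arrays a side does not show equal responses.

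RPS19A had the smallest p among the members, with no call. Its ratios were 0.17 and −0.37 on the celastrol arrays, against −1.25 and −1.09 on the heat shock arrays, and the 2 sets of arrays did not overlap. The difference was 1.07 ± 0.27 (limma SE), with an adjusted p of 0.199. RPS8B, with −0.52 and −1.80 on the celastrol arrays, against −2.69 and −2.04 on the heat shock arrays, had the largest difference, 1.20 ± 0.49 (SE; limma adjusted p = 0.384), with celastrol replicate 2 just above heat shock replicate 2. RPS25A, at −0.58 and −0.40 on the celastrol arrays, against −2.30 and −0.98 on the heat shock arrays, had a difference of 1.15 ± 0.46 (SE; limma adjusted p = 0.378) and no overlap. RPS4A (1.13 ± 0.59) and RPS8A (1.08 ± 0.50; both SE) completed the 5 highest.

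Values of RPS4B, RPS7A and RPS11A, of the body, are given as a description, since none was called. RPS4B had −0.59 and −1.28 on the celastrol arrays, against −2.04 and −1.67 on the heat shock arrays, and RPS7A had −0.73 and −0.95 on the celastrol arrays, against −1.68 and −1.36 on the heat shock arrays. RPS11A had −0.52 and −1.10 on the celastrol arrays, against −1.59 and −1.64 on the heat shock arrays. In each of them both heat shock arrays lay below both celastrol arrays, with differences of 0.92 ± 0.32 for RPS4B, 0.68 ± 0.24 for RPS7A and 0.80 ± 0.28 for RPS11A (all SE).

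Towards the other side, RPS14B (−1.26 ± 0.73) and RPS17A (−1.18 ± 1.19; both SE) had the lowest differences, and in both heat shock replicate 1 was the one array above 0. Without that array the difference was 0.65 for RPS17A and −0.21 for RPS14B. RPS18B, RPS22B and RPS0B, with −0.29 ± 0.84, −0.27 ± 0.78 and −0.20 ± 0.43 (all SE), were the other members below 0. RPS0B, for a protein required for late maturation of the small subunit, had −0.91 and −1.53 on the celastrol arrays, against −0.51 and −1.52 on the heat shock arrays, which overlapped. Its duplicate RPS0A had −0.89 and −0.87 on the celastrol arrays, against −1.96 and −1.57 on the heat shock arrays, with no overlap and a difference of 0.88 ± 0.24 (SE; limma adjusted p = 0.224).

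**Figure D3:**
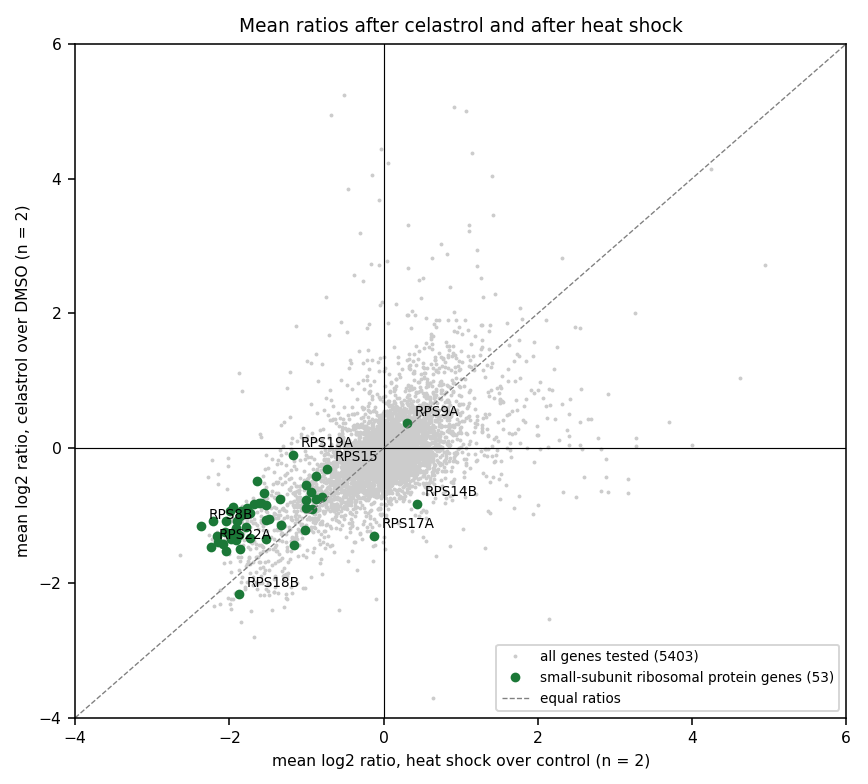
Mean log2 ratio after celastrol (vertical axis, n = 2 arrays) against mean log2 ratio after heat shock (horizontal axis, n = 2 arrays) for the 53 members in green and the 5403 genes tested in grey; the dashed line marks equal ratios. Of the members, 48 lie above the line, beside 2269 of the 5403 genes tested. RPS9A and RPS14B are the 2 members with a mean above 0 after heat shock.

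Across the 53 members, replicate arrays correlated with r = 0.53 for celastrol and r = 0.37 for heat shock, against r = 0.85 and r = 0.66 across all 5403 genes. Treatment means correlated with r = 0.57 across the members and r = 0.57 across all genes. These describe points that share arrays, and members are not independent replicates. Between the heat shock arrays, r was −0.19 across the 20 head members and 0.66 across the 33 of the body and platform. Genes far from the rest enter both values. In the head these include RPS17A (1.69 and −1.95) and RPS18B (−3.06 and −0.70). In the body and platform they include RPS9A (0.20 and 0.40) and RPS14B (1.49 and −0.62). No r was computed without them, so these values do not show a difference between the regions. All r are Pearson values, and the order of members was not compared.

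The A and B copies were compared within each array, where a shift of the whole array cancels. RPS9 stood out: RPS9A was above RPS9B on all 4 arrays. RPS9A had 0.54 and 0.19 on the celastrol arrays, against 0.20 and 0.40 on the heat shock arrays, while RPS9B had −1.06 and −1.62 on the celastrol arrays, against −2.04 and −1.44 on the heat shock arrays. The values of the 2 copies did not overlap. The difference of A minus B was 1.60 and 1.81 on the celastrol arrays, against 2.24 and 1.84 on the heat shock arrays. RPS9A over RPS9B was thus 3.26-fold after celastrol (1.71 ± 0.14, SD, n = 2; limma adjusted p = 0.0536) and 4.11-fold after heat shock (2.04 ± 0.28, SD, n = 2; limma adjusted p = 0.0212), each relative to the copies' own controls.

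P-values for copies were adjusted over all 57 couples on the array whose symbols differ only by a last A or B. After heat shock 1 of the 57 couples was called (1.75%), RPS9, and after celastrol 0 (0.0%); among the 23 small-subunit couples tested, 1, RPS9, reached an unadjusted p under 0.05 after celastrol and 5 did after heat shock, where 10.5% of the 57 couples did after celastrol and 24.6% after heat shock. The heat shock call of RPS9 was lost without heat shock replicate 1 (limma adjusted p = 0.062) and without either celastrol array or with the heat shock arrays fitted alone (limma adjusted p = 0.0546). With quantile normalization RPS9 was also called after celastrol (limma adjusted p = 0.0145), and over all settings its adjusted p there ran between 0.00143 and 0.614. The median size of A minus B, without its sign, over the 23 couples was 0.493 and 0.458 log2 units on the celastrol arrays, against 0.692 and 0.337 on the heat shock arrays.

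**Figure D4:**
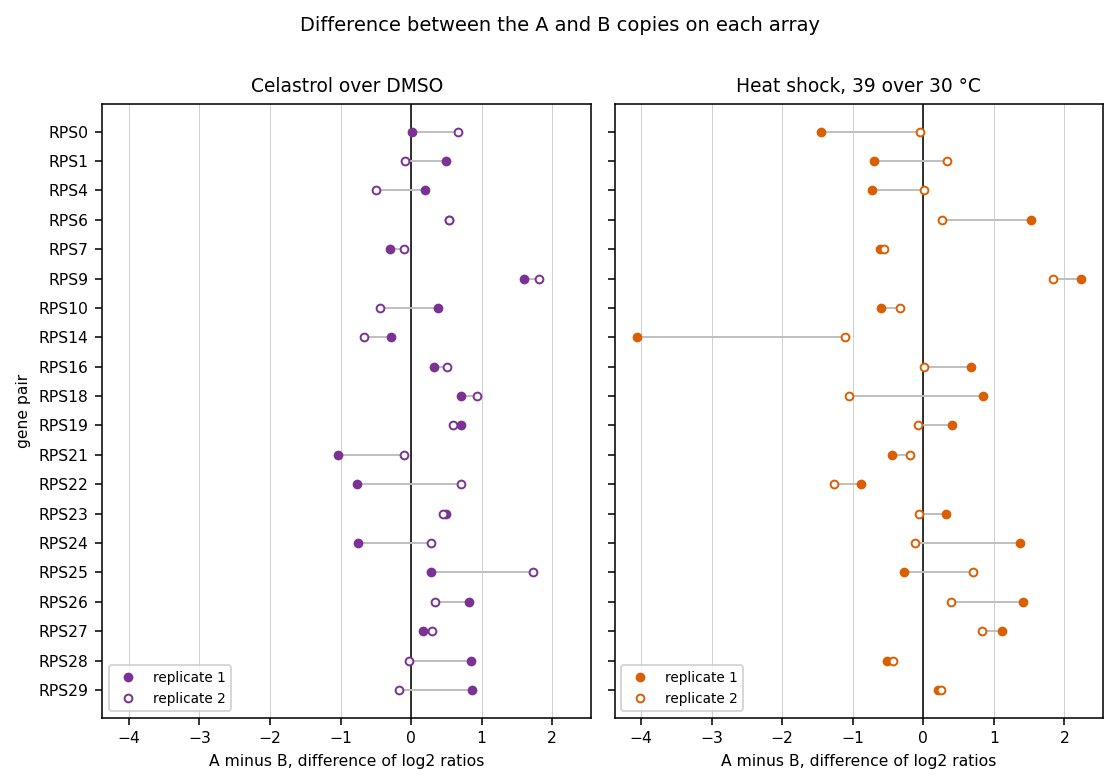
Difference between the log2 ratios of the A and the B copy of 20 of the 23 small-subunit gene couples on each array, with celastrol on the left and heat shock on the right; filled points are replicate 1, open points replicate 2. RPS9 lies at 1.60 or more on all 4 arrays, and RPS14 reaches −4.06 on heat shock replicate 1.

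In 7 couples the A copy had the higher ratio on all 4 arrays, among them RPS6, RPS9, RPS16, RPS26 and RPS27, and in 3 the B copy did, RPS7, RPS14 and RPS21. The same count over the 57 couples was not made, and RPS9 alone was called, after heat shock. RPS26, for a protein at the exit of the messenger RNA channel, differed by 0.82 and 0.35 on the celastrol arrays, against 1.41 and 0.39 on the heat shock arrays. RPS6, for the ribosomal protein that is phosphorylated under TORC1 control, differed by 0.53 and 0.54 on the celastrol arrays, against 1.53 and 0.26 on the heat shock arrays. In both couples heat shock replicate 1 held the largest gap, and neither passed the test after heat shock (limma adjusted p = 0.18 for RPS26 and 0.199 for RPS6). RPS27 differed by 0.18 and 0.30 on the celastrol arrays, against 1.12 and 0.83 on the heat shock arrays (limma adjusted p = 0.0723 after heat shock). Its heat shock values lay above its celastrol values without overlap.

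RPS14 had the largest mean difference after heat shock, with RPS14A below RPS14B. The difference was −0.28 and −0.67 on the celastrol arrays, against −4.06 and −1.12 on the heat shock arrays, and did not pass (limma adjusted p = 0.0723 after heat shock). RPS14A fell after heat shock, whereas RPS14B, known in yeast to be repressed by its own protein through its precursor RNA, had the ratios of 1.49 and −0.62 given above. RPS22 differed by −0.77 and 0.70 on the celastrol arrays, against −0.88 and −1.27 on the heat shock arrays (limma adjusted p = 0.18 after heat shock), the A copy being lower on both heat shock arrays and the celastrol arrays pointing opposite ways.

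After celastrol, RPS25, RPS18, RPS19, RPS26 and RPS21 followed RPS9 in the size of the mean difference. RPS25, for a head protein that internal ribosome entry sites need, differed by 0.28 and 1.72 on the celastrol arrays, against −0.27 and 0.70 on the heat shock arrays. RPS18 differed by 0.70 and 0.93 on the celastrol arrays, against 0.85 and −1.06 on the heat shock arrays. For RPS19 the values were 0.70 and 0.60 on the celastrol arrays, against 0.41 and −0.069 on the heat shock arrays. The celastrol differences of these couples were all above 0 and those after heat shock held both signs. RPS21 differed by −1.03 and −0.10 on the celastrol arrays, against −0.44 and −0.19 on the heat shock arrays. None was called, with limma adjusted p-values of 0.427 for RPS25 and RPS19 and 0.493 for RPS18, RPS26 and RPS21 after celastrol.

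After heat shock both copies fell in 9 of the 23 couples (among them RPS4, RPS7, RPS10, RPS16, RPS19, RPS25 and RPS28), 1 copy in 11, and neither in 3 (RPS24 and RPS27 among them). Where only 1 copy passed, the difference between copies was itself called in RPS9 alone. By copy, in the 23 couples, 14 A copies (60.9%) and 15 B copies (65.2%) fell after heat shock, beside 4.79% of all genes. After celastrol 1 A copy (4.35%) and 4 B copies (17.4%) fell, beside 2.68% of all genes. RPS30B, which also fell after heat shock, is outside these counts. The medians were −0.87 for A copies and −1.13 for B copies after celastrol, and −1.64 for A copies and −1.74 for B copies after heat shock. RPS30 could not be compared on all arrays: RPS30A had −0.84 and −1.65 on the celastrol arrays and −2.14 on heat shock replicate 1, against −0.78 and −1.35 and −1.99 for RPS30B.

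In the gene order of RefSeq's R64 assembly, 8 members have another ribosomal protein gene as the next protein-coding gene. RPS14B and RPS22A are neighbours, and their ratios differed: RPS14B had means of −0.82 after celastrol and 0.43 after heat shock, RPS22A −1.47 and −2.24, falling in both. RPS19B beside RPL18B had means of −0.75 after celastrol and −1.34 after heat shock, and RPL18B −0.88 and −1.31. RPS15 beside the stalk protein gene RPP2A had −0.31 and −0.74, and RPP2A −0.87 and −1.79 in the same order. These couples of neighbours were chosen after their values were seen. They held both like and unlike means, and their likeness was not tested.

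Large-subunit and stalk protein genes fell after both treatments too. Of 77, 11 fell after celastrol (14.3%) and 50 after heat shock (64.9%), and 0 rose after either, with medians of −1.06 after celastrol and −1.52 after heat shock. Of 20 genes for small-subunit proteins of the mitochondrial ribosome, which stands apart from the cytosolic one, limma called 0 after celastrol and 0 after heat shock, with 2 and 0 at an unadjusted p under 0.05 (30.8% and 30.4% of all genes) and medians of 0.10 and 0.18 in that order. No test was made between these groups.

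ASC1, for the RACK1-like protein bound to the head of the small subunit, was low on every array. It had −0.99996 and −1.20 on the celastrol arrays, against −1.997 and −1.99 on the heat shock arrays, and fell after both treatments (means of −1.10 after celastrol and −1.99 after heat shock; limma adjusted p = 0.0278 and 0.011). Of the 23 tested genes for proteins that bind or chaperone small-subunit proteins or assemble the subunit, ASC1 included, 2 fell and 0 rose after celastrol (8.7% lower, beside 2.68% of all genes), and 1 fell and 0 rose after heat shock (4.35% lower, beside 4.79% of all genes). The other gene that fell after celastrol was KRR1, for a processing factor of the small-subunit precursor, with −0.95 and −1.36 on the celastrol arrays, against −0.69 and −0.70 on the heat shock arrays. The list's medians were −0.42 after celastrol and 0.074 after heat shock.

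Of 13 tested genes for regulators of ribosomal protein transcription, 1 fell after celastrol and 1 after heat shock (7.69% each, beside 2.68% and 4.79% of all genes), TOD6 both times, and 0 rose after either. With 1 gene, these shares say nothing about the list. TOD6, a repressor of ribosome biogenesis genes, had −1.82 and −2.62 on the celastrol arrays, against −2.65 and −1.38 on the heat shock arrays, with heat shock replicate 2 nearest to 0. The medians of the 13 were −0.23 after celastrol and 0.041 after heat shock.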

How the data were processed

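The deposited values, 1 per probe and array, are log2 ratios of treated (Cy5) over control (Cy3); per the labels of the series, the authors averaged duplicate values on a chip and set them relative to the chip's median signal. No source used here gives the software, background correction, spot filter or genome build. Base 2 was read from heat shock replicate 1, where 1229 pairs of values differed, within 1e-06, by the log2 of a ratio of small whole numbers, against 535 when the targets were shifted; base 2 was assumed for the other 3 arrays. Exact zeros (7 and 4 on the celastrol arrays, 44 and 47 on the heat shock arrays) were taken as not measured. Of 6415 probes, 5619 name 1 gene, 76 several and 720 none; all 5619 identifiers matched RefSeq R64 and 0 symbols changed. Probes of a gene were averaged.

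The ratios of 5403 genes went into limma 3.58.1 (R 4.3.3; lmFit, eBayes) with 1 mean per treatment over 4 arrays; residual and prior degrees of freedom were 2 and 3.12, and the prior SD was 0.268. Benjamini-Hochberg adjustment ran over all genes, and calls were made at an adjusted p under 0.05; "rose" and "fell" mean called. Differences between A and B copies had a fit of their own over 57 couples. The number of arrays, 2 a treatment, limits precision. Other settings were 2 scalings, zeros kept, the median of probes, partly measured genes, a replicate block, array weights, each treatment alone, a test against a 1.5-fold change and each array left out. Any member could be named; values on every array were given at least for the 5 lowest and highest members of each comparison, the 6 largest copy differences and genes without a partner, and of other lists ASC1 and called genes. Some members and couples are not reported here. Members, lists and tests were chosen with earlier results of these data known. Samples of equal replicate number were not taken as paired, since the deviations of replicate 1 correlated with r = −0.31 between treatments.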

Additional observations from a re-analysis of the deposited data

Results flagged for a closer look

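The difference between RPS0A and RPS0B pointed opposite ways in the treatments on every array. RPS0A minus RPS0B was 0.016 and 0.66 on the celastrol arrays, against −1.45 and −0.044 on the heat shock arrays, a difference of 1.09 between the treatment means. The values nearest to 0 were celastrol replicate 1 and heat shock replicate 2. The test of this difference did not pass (limma adjusted p = 0.698, unadjusted p = 0.115).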

How the results depend on the processing

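Over the 53 members tested, every call after celastrol and, apart from 2 without heat shock replicate 2, every call after heat shock was a lower one in each setting tried. The count after celastrol, 7, was 3 with arrays centred on their medians, 34 with quantile normalization, 32 with array weights, 41 with the celastrol arrays fitted alone, 0 against a 1.5-fold change, and 0 to 41 with 1 array left out. The count after heat shock, 35, was 15 with array weights, 4 against a 1.5-fold change, 0 with the heat shock arrays alone, and 0 to 44 with 1 array left out. The count for celastrol minus heat shock, 0, was 0 to 4 with 1 array left out. Called small-subunit couples after celastrol, 0, numbered 1 with quantile normalization, array weights, partly measured genes or the celastrol arrays alone, and 0 to 1 with 1 array left out. Called couples after heat shock, 1, numbered 2 with quantile normalization, 0 against a 1.5-fold change or with the heat shock arrays alone, and 0 to 8 with 1 array left out. Leaving out an array, or fitting a treatment alone, changes by construction which arrays supply the spread; the cause of the other changes was not tested.

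With the replicate number as a block, counts were 0 after celastrol, 0 after heat shock and 0 for the difference, and 1 couple after celastrol and 2 after heat shock; the samples share only a number. A crossed replicate block, chosen after seeing the data, gave 32 members after celastrol, 43 after heat shock and 0 for the difference, and 1 and 3 couples.

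Among all genes, 353 calls after celastrol (145 lower, 208 higher) became 87 lower and 245 higher with centred arrays and 667 lower and 468 higher with quantile normalization; 490 after heat shock (259 lower, 231 higher) became 236 and 254, and 629 and 360. The 353 became 65 with the block, 798 with the crossed block, 1243 with array weights, 60 against a 1.5-fold change, 1522 with the celastrol arrays alone, and 0 to 1522 with 1 array left out. The 490 became 30, 849, 216, 69, 0, and 0 to 1582 in the same settings. The 60 for the difference became 164 with quantile normalization, 0 with the block, 31 against a 1.5-fold change, and 0 to 575 with 1 array left out.

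The member medians moved by less than the spread between replicate arrays in each scaling. With an array left out they ran from −1.53 to −0.60 after celastrol, −1.99 to −1.44 after heat shock and 0.17 to 0.998 for the difference. With 2 arrays a treatment, leaving 1 out moves a mean by less than the SD of those arrays by construction. These ranges are therefore no check of stability. Signs turned after celastrol for RPS19A with centred arrays (0.044) and quantile normalization (0.00034). With an array left out, signs turned for RPS15 (−0.65 to 0.030), RPS19A (−0.37 to 0.17), RPS24B (−1.37 to 0.031) and RPS29A (−1.76 to 0.10) after celastrol, and for RPS14B (−0.62 to 1.49) and RPS17A (−1.95 to 1.69) after heat shock. For celastrol minus heat shock they did for RPS17A (−2.999 to 0.65), RPS18B (−1.47 to 0.89), RPS22B (−1.35 to 0.82) and RPS0B (−0.71 to 0.30). For A minus B they did for RPS22 after celastrol (−0.77 to 0.70), and after heat shock for RPS18 (−1.06 to 0.85), RPS19 (−0.069 to 0.41) and RPS25 (−0.27 to 0.70).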

Other observations

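The probe left out because it names RPS3 and a second entry had log2 ratios of −0.94 and −1.63 on the celastrol arrays, against −2.43 and −2.03 on the heat shock arrays. It was below 0 on all 4 arrays, with the lower celastrol value on replicate 2 and the lower heat shock value on replicate 1. RPS3 encodes a protein at the entry of the messenger RNA channel.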
